A study of Mus musculus with 20 samples.

Results

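The suppressor of cytokine signaling genes Socs1, Socs2, Socs3 and Cish and the signal transducer and activator of transcription genes Stat3, Stat4, Stat5a, Stat5b and Stat6 were followed in regulatory T (Treg) cells and CD4+Foxp3- T cells of mice with and without Tet2 and Tet3 in the Treg lineage. The 9 genes were taken by symbol from 2 tables of raw read counts, in which 16357 genes were tested in pooled spleen and peripheral lymph nodes (pLNs) and 16784 in mesenteric lymph nodes (mLN). All 9 passed the filter on low values in both tables. The 9 genes were selected on earlier results of these same 20 libraries, so their levels, differences and calls are given here as a description, with no p-value.

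The libraries came from C57BL/6 mice at 14 weeks of age. WT mice carried Foxp3 Cre alone, a YFP-Cre fusion knocked into the Foxp3 gene, and DKO mice carried the same Foxp3 Cre together with fl/fl (loxP-flanked) alleles of both Tet2 and Tet3. Treg cells were sorted as CD4+YFP+ and Foxp3- cells as CD4+YFP-, with 2 mice per genotype in spleen and pLNs (8 libraries) and 3 per genotype in mLN (12 libraries). Cre was active where Foxp3 was or had been expressed, so Foxp3- cells of DKO mice can hold both cells that never deleted Tet2 and Tet3 and former Treg cells, in shares that these data do not give. The study describes the 2 DKO mice of the spleen and pLN set as littermates, 1 of them with more severe splenomegaly, and the labels do not say which, so replicates are named here by number. Both cell types of that set came from the same 2 DKO littermates, but the labels do not say that a number marks the same mouse in both.

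Cytokines such as interleukin-2 (IL-2), IL-4, IL-6 and IL-12 bind receptors that carry Janus kinases (JAKs), and the activated JAKs phosphorylate STAT proteins, which then enter the nucleus and bind DNA as dimers. SOCS proteins are induced by STATs and switch the signal off, by blocking JAKs or by joining receptor and kinase to a ubiquitin ligase, so SOCS transcripts are often read as a record of recent cytokine signaling. In Treg cells the high-affinity IL-2 receptor and STAT5 sustain Foxp3 and survival.

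Library totals ran from 13525932 to 15253141 counts for spleen and pLNs, with mLN at 9998478 to 15449158. Levels are counts scaled to a library total of 1000000 (CPM), after trimmed mean of M-values (TMM) scaling, and the floor of 3 counts stood at 0.172 to 0.299 CPM. Foxp3 was at 152 to 419 CPM in every Treg library and at 0.211 to 2.75 CPM in every Foxp3- library, as the sort requires. Counts over whole transcripts did not show the deletion itself. Tet2 in mLN Treg cells was at 10.4, 10.4 and 10.8 CPM in WT and at 11.4, 7.69 and 12.8 CPM in DKO. Genes of other cells differed between genotypes and single libraries. The summed level of 6 B cell markers in mLN Treg libraries was 30.7, 35.4 and 27.0 CPM in WT against 9.93, 26.8 and 8.81 CPM in DKO. It was 29.6 and 28.0 CPM against 14.6 and 10.2 CPM for spleen and pLNs. In both, 5 of the 6 genes were higher in DKO and 1 lower. In mLN Foxp3- libraries the sum was 2.81, 2.77 and 2.49 CPM in WT against 2.40, 20.8 and 6.01 CPM in DKO. The summed level of 5 CD8 and NK markers in Treg libraries was 40.4, 37.9 and 30.4 CPM in WT against 188, 109.5 and 160.3 CPM in DKO for mLN, and 80.0 and 75.8 CPM and 254 and 213 CPM for spleen and pLNs. Klrb1c made up most of the DKO sums of mLN, at 155, 72.3 and 110.0 CPM, and Cd8a was at 0.229, 0.144 and 0.168 CPM there. Cd8b1 went the other way, at 20.5, 19.6 and 15.7 CPM in WT against 3.67, 2.80 and 3.78 CPM in DKO mLN Treg cells, and at 19.3 and 17.1 CPM in WT against 6.64 and 9.28 CPM in DKO Treg cells of spleen and pLNs. In Foxp3- libraries of mLN the sum of the 5 was 42.2, 47.5 and 40.9 CPM in WT against 88.9, 154 and 121 CPM in DKO. For those of spleen and pLNs it was 216 and 151 CPM against 277 and 261 CPM. The plasma cell gene Jchain was at 412 CPM in DKO Treg 2 and 474 CPM in DKO Foxp3- 2 of mLN, against 1.24 to 46.8 CPM in the other 10 mLN libraries. Its spleen and pLN row, Igj, was at 88.4 and 119 CPM in DKO Treg 1 and DKO Foxp3- 1 and at 15.4 and 23.6 CPM in DKO Treg 2 and DKO Foxp3- 2. The summed level of 9 myeloid markers in mLN Treg libraries was 4.77, 2.98 and 2.85 CPM in WT against 14.4, 26.7 and 54.6 CPM in DKO, and Csf1r among them was at or under the floor in all 12 libraries. In the 10 myeloid markers of spleen and pLNs it was 2.84 and 4.94 CPM in WT against 35.8 and 12.6 CPM in DKO Treg libraries. Foxp3- libraries had 8.60, 7.56 and 9.38 CPM in WT against 8.69, 27.2 and 11.8 CPM in DKO for mLN, and 8.66 and 9.65 CPM against 32.5 and 22.0 CPM for spleen and pLNs. Few markers carried the sum in mLN Treg cells. In DKO, Cd68 was at 10.8, 6.25 and 10.7 CPM, Itgam at 2.98, 17.5 and 5.87 CPM and Fcer1g at 0.0764, 0.0719 and 36.8 CPM, whereas Lyz2 was at 2.22, 0.827 and 0.885 CPM in WT and at 0.306, 0.503 and 0.839 CPM in DKO. The summed level of 5 Treg markers in Foxp3- libraries was 133, 137 and 135 CPM in WT against 178, 348 and 249 CPM in DKO for mLN, and 220.4 and 199 CPM against 707 and 226 CPM for spleen and pLNs. Of the 5, Ikzf2 and Ctla4 were called higher in mLN, by the thresholds given below, where 3.12% of all genes were. Foxp3, also of the 5, did not rise, at a log2 fold change of -0.10 in mLN and -0.38 in spleen and pLNs. Il2ra was at 0.29 and 0.55 and was not called. The summed level of 8 immediate early genes, which respond to stimulation and to cell handling, was 2073, 2529 and 1669 CPM in WT against 1446, 1729.9 and 1241 CPM in DKO mLN Treg cells. For spleen and pLN Treg cells it was 684 and 728 CPM in WT against 1176 and 728 CPM in DKO, the higher value being that of replicate 1. In Foxp3- cells of mLN it was 3385, 3286 and 2045 CPM in WT against 2351, 1768 and 1993 CPM in DKO. Those of spleen and pLNs had 639 and 678 CPM in WT against 1248 and 983 CPM in DKO. The part of these differences in the results was not tested.

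Most STATs bind the palindrome TTCNNNGAA, the only spacing searched here, and the starts of 2 of the 8 genes searched hold it. The motif, which reads the same on both strands, was searched in RefSeq promoter windows (GRCm38.p6) that run from 250 bases before to 50 bases after a gene's start. Of all 32851 windows, 2726 (8.30%) held at least 1 match and 150 (0.457%) at least 2. Windows were present for 8 of the 9 genes, in 11 windows, Socs2 being the gene without one. Cish had 2 matches and Socs3 had 1, and the windows of Socs1, Stat3, Stat4, Stat5a, Stat5b and Stat6 had none. The 30 bases around the matches, placed in the genome by an exact and unique match to NCBIM37 (the assembly of mm9), are shown because they hold the motif, in capitals.
Cish, chr9:107198985-107199014, plus strand, bases -5 to 25 from the start: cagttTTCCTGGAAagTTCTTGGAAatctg
Socs3, chr11:117830816-117830845, minus strand, bases -165 to -136 from the start: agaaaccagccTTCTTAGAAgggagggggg
The Cish stretch lies in the 5′ UTR of the longer transcript Cish-001 in GENCODE M1 and in an intron of the antisense gene Gm17040, and the Socs3 stretch lies in an intron of Socs3-002, a noncoding transcript, upstream of the coding one. The files hold no measure of STAT binding, so the matches describe the sequence only.

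Socs1 lies on chromosome 16 at 10783901 to 10785629, Socs2 on chromosome 10 at 94847996 to 94879814, Socs3 on chromosome 11 at 117827393 to 117831361 and Cish on chromosome 9 at 107198357 to 107205115 (NCBIM37). Stat4 lies on chromosome 1 at 52043992 to 52164032 and Stat6 on chromosome 10 at 127080042 to 127098013. The other three STAT genes are neighbors on chromosome 11, with Stat5b at 100642045 to 100712038, Stat5a at 100720665 to 100746483 and Stat3 at 100746412 to 100800854. Stat5b and Stat5a stood 8626 bases apart on opposite strands, and the ends of Stat5a and Stat3, also on opposite strands, shared 72 bases. Counting used strand, so this overlap did not mix their reads. Stat5a and Stat5b are near-identical in coding sequence, and reads that fit both can be lost or assigned to either under counting of 1 alignment per read, so the split between them is uncertain.

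Per length, in the TPM values that the authors scaled for gene length, Cish led the 9 genes in WT Treg cells. In mLN its TPM was 115, 158 and 178 in the 3 WT Treg libraries, and Stat6, which serves IL-4 and IL-13, was at 135, 129.6 and 142 TPM and Stat3, which serves IL-6, IL-21 and IL-23, at 129, 134 and 136 TPM. The Cish range spanned those of Stat6 and Stat3, so the order of these 3 was within the spread. Stat4 came next, below Stat3 in every library, and from there Stat5b, Socs3, Socs1 and Stat5a followed with ranges that each overlapped the neighbor above. Socs2 was last at 45.3, 58.3 and 55.9 TPM, below the range of Stat5a. In WT Treg cells of spleen and pLNs Cish stood above all others at 112 and 118 TPM and Socs2 again last at 23.3 and 27.0 TPM. In WT Foxp3- cells the order changed at the SOCS end. Cish was the eighth of 9 at 16.9, 19.2 and 21.5 TPM in mLN and Socs2 was last at 0.771, 1.15 and 1.63 TPM, whereas Stat6 and Stat3 led with overlapping ranges. In DKO Treg cells of mLN Cish was also the eighth, at 37.7, 38.1 and 61.1 TPM, with a range overlapping that of Socs1 above it.

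**Figure D1:**
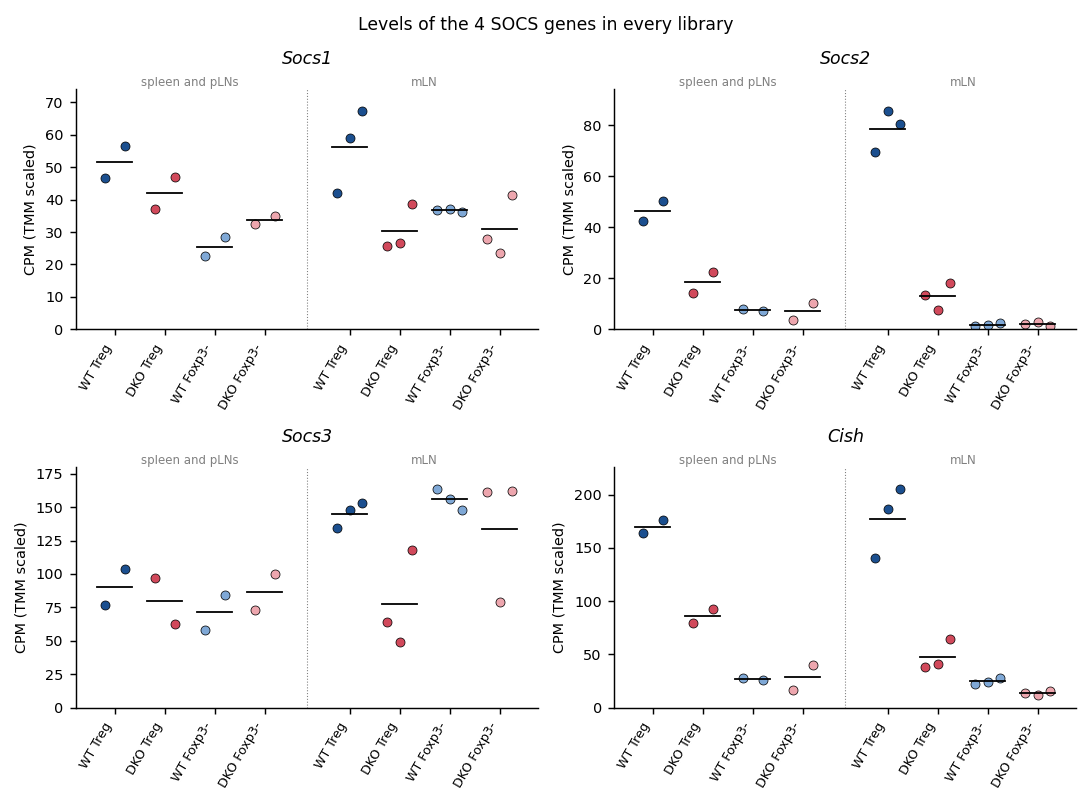
Levels of Socs1, Socs2, Socs3 and Cish in CPM after TMM scaling (linear axes from 0), 1 point per library and a line at the group mean, with spleen and pLNs on the left of each panel and mLN on the right. In mLN Treg cells all 3 DKO points lie below all 3 WT points for each gene, and Socs2 and Cish are low in Foxp3- cells of both genotypes.

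Cish, a SOCS family protein induced by STAT5 that restrains IL-2 and T cell receptor signaling, was lower in DKO than in WT Treg cells in both tissues. In mLN it was at 141, 186 and 205 CPM in WT against 38.0, 41.2 and 64.6 CPM in DKO Treg libraries. The groups did not overlap, and the difference was -1.89 ± 0.19 (log2 fold change ± SE, here and below), or 3.70-fold lower in DKO. Its spleen and pLN level was 164 and 176 CPM in WT against 79.3 and 92.2 CPM in DKO, again without overlap, a difference of -0.99 ± 0.28. In bulk RNA, fewer cells of a type and less RNA per cell cannot be told apart, here and in every difference below.

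Foxp3- cells held far less Cish, and the 2 tissues differed in how DKO compared with WT. In mLN it was at 22.4, 24.4 and 27.4 CPM in WT against 13.5, 11.8 and 15.6 CPM in DKO Foxp3- cells, without overlap, a difference of -0.86 ± 0.20. In spleen and pLNs the WT libraries were at 27.5 and 26.0 CPM and the DKO libraries at 16.9 and 40.2 CPM. Those DKO libraries lay on either side of WT, the fitted difference was 0.09 ± 0.29, and it was -0.66 when DKO Foxp3- replicate 2 was left out and 0.59 when both DKO libraries numbered 1 were left out. No direction can therefore be given for Cish in Foxp3- cells of spleen and pLNs.

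Socs2, which limits growth hormone and several cytokine signals and is likewise induced by STAT5, showed the widest spread between groups. In mLN Treg cells it was at 69.4, 85.6 and 80.5 CPM in WT against 13.6, 7.55 and 18.2 CPM in DKO, without overlap, a difference of -2.59 ± 0.27 or 6.00-fold. In mLN Foxp3- cells it was near the low end of detection in both genotypes, at 1.28, 1.82 and 2.59 CPM in WT against 1.95, 2.74 and 1.33 CPM in DKO, with overlapping groups and a difference of 0.13 ± 0.40. DKO Treg cells thus held less Socs2 than WT Treg cells and still more than every Foxp3- library of mLN.

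Socs2 in spleen and pLNs was at 42.4 and 50.2 CPM in WT against 14.4 and 22.5 CPM in DKO Treg cells, without overlap, a difference of -1.33 ± 0.35. The Foxp3- libraries were at 7.98 and 7.07 CPM in WT and at 3.77 and 10.4 CPM in DKO, with the 2 DKO libraries on either side of WT. DKO Foxp3- replicate 1 was the lower one for both Socs2 and Cish.

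Socs1, which blocks JAK kinase activity directly and is induced by interferons and by IL-2, was lower in DKO Treg cells of mLN by a smaller step. It was at 41.9, 59.0 and 67.4 CPM in WT against 25.7, 26.6 and 38.8 CPM in DKO, groups that did not overlap by a narrow margin, a difference of -0.89 ± 0.22. Treg cells of spleen and pLNs were at 46.7 and 56.6 CPM in WT against 37.0 and 46.9 CPM in DKO, with overlap between 46.7 and 46.9 CPM and a difference of -0.30 ± 0.18. Among Foxp3- cells of spleen and pLNs the DKO libraries were the higher ones, at 32.4 and 35.0 CPM against 22.6 and 28.4 CPM in WT, a difference of 0.40 ± 0.19. In Foxp3- cells of mLN the WT libraries were tightly grouped at 36.9, 37.0 and 36.3 CPM and the DKO libraries lay on both sides at 27.9, 23.5 and 41.5 CPM.

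Socs3, the inhibitor that binds the shared IL-6 receptor chain and limits STAT3 signals, was at 135, 148 and 153 CPM in WT against 64.2, 49.4 and 118 CPM in DKO Treg cells of mLN. The groups did not overlap, the DKO libraries spread over a wider range than WT, and the difference was -0.91 ± 0.29. Unlike Cish and Socs2, it was as high in mLN Foxp3- cells, at 163, 156 and 148 CPM in WT. DKO Foxp3- libraries were at 161, 78.9 and 162 CPM, with replicates 1 and 3 inside the WT range and replicate 2 far below it. Spleen and pLN levels of Socs3 overlapped between genotypes in both cell types, at 77.1 and 104 CPM in WT against 97.2 and 62.5 CPM in DKO Treg cells and at 58.2 and 84.2 CPM in WT against 73.0 and 100.3 CPM in DKO Foxp3- cells.

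The DKO libraries numbered 2 of mLN, with the high Jchain level, were the lowest for Socs2 and Socs3 among DKO Treg cells and for Socs1, Socs3 and Cish among DKO Foxp3- cells. Without both of them the mLN Treg differences were -0.80 for Socs1, -2.30 for Socs2, -0.67 for Socs3 and -1.79 for Cish. Each of them was past the thresholds for a call given below, as were 9.8% of all genes in the higher and 4.18% in the lower direction in that fit. Without both DKO libraries numbered 1, the spleen and pLN Treg differences were -0.14 for Socs1, -1.04 for Socs2, -0.53 for Socs3 and -0.88 for Cish.

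**Figure D2:**
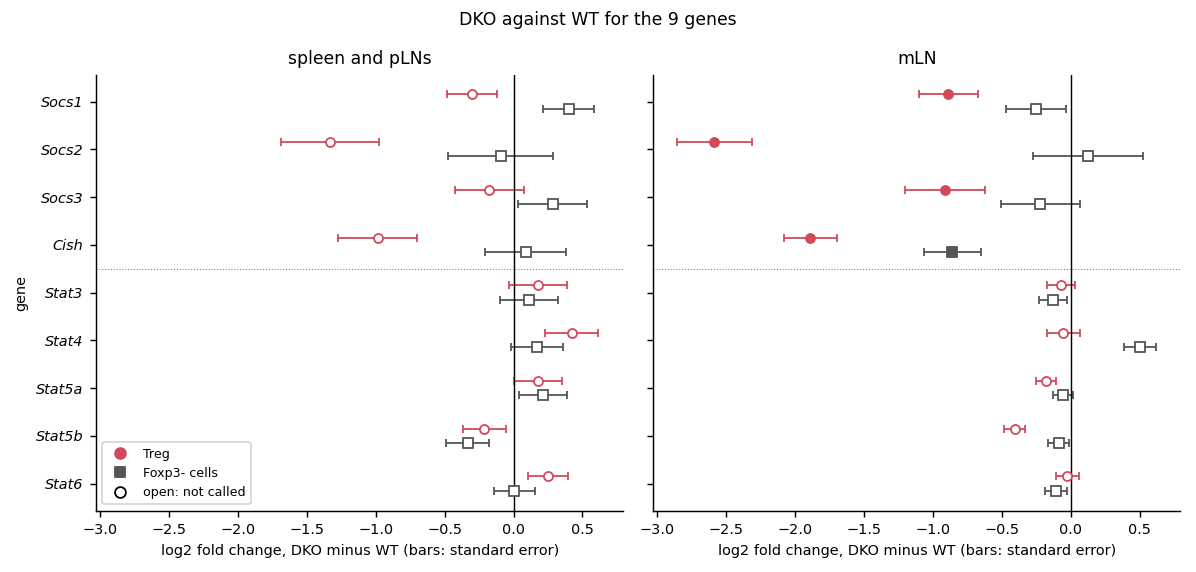
Log2 fold change of DKO minus WT with its standard error for the 9 genes, in Treg cells (circles) and Foxp3- cells (squares), with spleen and pLNs on the left and mLN on the right (filled: called, open: not called). In mLN the 4 SOCS genes lie between -2.59 and -0.89 in Treg cells, whereas the STAT genes lie between -0.40 and 0.51 in both cell types.

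Among the STAT genes, Stat5b, which with Stat5a carries the IL-2 signal, differed between genotypes in Treg cells of both tissues without overlap. Its mLN Treg level was 303, 307 and 311 CPM in WT against 234, 229 and 234 CPM in DKO, with a coefficient of variation of 1.33% and 1.18%, no overlap and a difference of -0.40 ± 0.08, 1.32-fold lower in DKO and so under the 1.5-fold minimum used for a call. Treg cells of spleen and pLNs were at 285 and 272 CPM in WT against 244 and 236 CPM in DKO. Foxp3- cells of spleen and pLNs were at 257 and 252 CPM in WT against 184 and 221 CPM in DKO, whereas in Foxp3- cells of mLN the groups overlapped, at 270.1, 280.4 and 276 CPM and 265, 232 and 282 CPM.

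Stat5a differed less than Stat5b. It was at 137, 135 and 143 CPM in WT against 129, 119 and 118 CPM in DKO Treg cells of mLN, without overlap, a difference of -0.18 ± 0.07. Treg cells of spleen and pLNs had 106 and 107 CPM in WT against 133 and 107 CPM in DKO Treg cells, and the groups overlapped. The TPM ratio of Stat5b to Stat5a was 1.58, 1.63 and 1.55 in WT and 1.29, 1.37 and 1.42 in DKO Treg libraries of mLN, and 1.93 and 1.81 and 1.31 and 1.58 in those of spleen and pLNs, so all DKO ratios were below all WT ratios within a tissue. For Foxp3- cells of spleen and pLNs the ratio was 2.06 and 2.18 in WT and 1.16 and 1.83 in DKO, also without overlap. In mLN Foxp3- cells the ratios overlapped, at 1.65, 1.77 and 1.90 in WT and 1.76, 1.61 and 1.81 in DKO.

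Stat4, which carries IL-12 signals toward interferon-γ, was the STAT gene that was higher in DKO Foxp3- cells of mLN. It was at 147, 148 and 148 CPM in WT against 188, 248 and 193 CPM in DKO, without overlap, a difference of 0.51 ± 0.12, and 0.36 without the DKO libraries numbered 2. Its groups overlapped in mLN Treg cells, at 186, 191 and 173 CPM in WT against 207, 159.8 and 163 CPM in DKO. Spleen and pLN Treg cells were higher in DKO, at 170.1 and 126 CPM against 117 and 104 CPM in WT, and Foxp3- cells overlapped at 158 and 129 CPM in WT against 180.3 and 142 CPM in DKO.

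Stat3, the STAT of IL-6, IL-21 and IL-23, overlapped between genotypes in both tissues and cell types. It was at 328, 326 and 326 CPM in WT against 318, 267 and 348 CPM in DKO Treg cells of mLN, and at 238 and 237 CPM and 326 and 211 CPM in those of spleen and pLNs. Replicate 1 of spleen and pLNs was the higher of the 2 DKO libraries for Stat3, Stat4 and Stat5a in both cell types. Stat6 was at 291, 269 and 289 CPM in WT against 299.9, 281 and 254 CPM in DKO Treg cells of mLN, with overlap, and at 226 and 222 CPM and 272 and 261 CPM in those of spleen and pLNs, without overlap and higher in DKO by 0.25 ± 0.15.

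**Figure D3:**
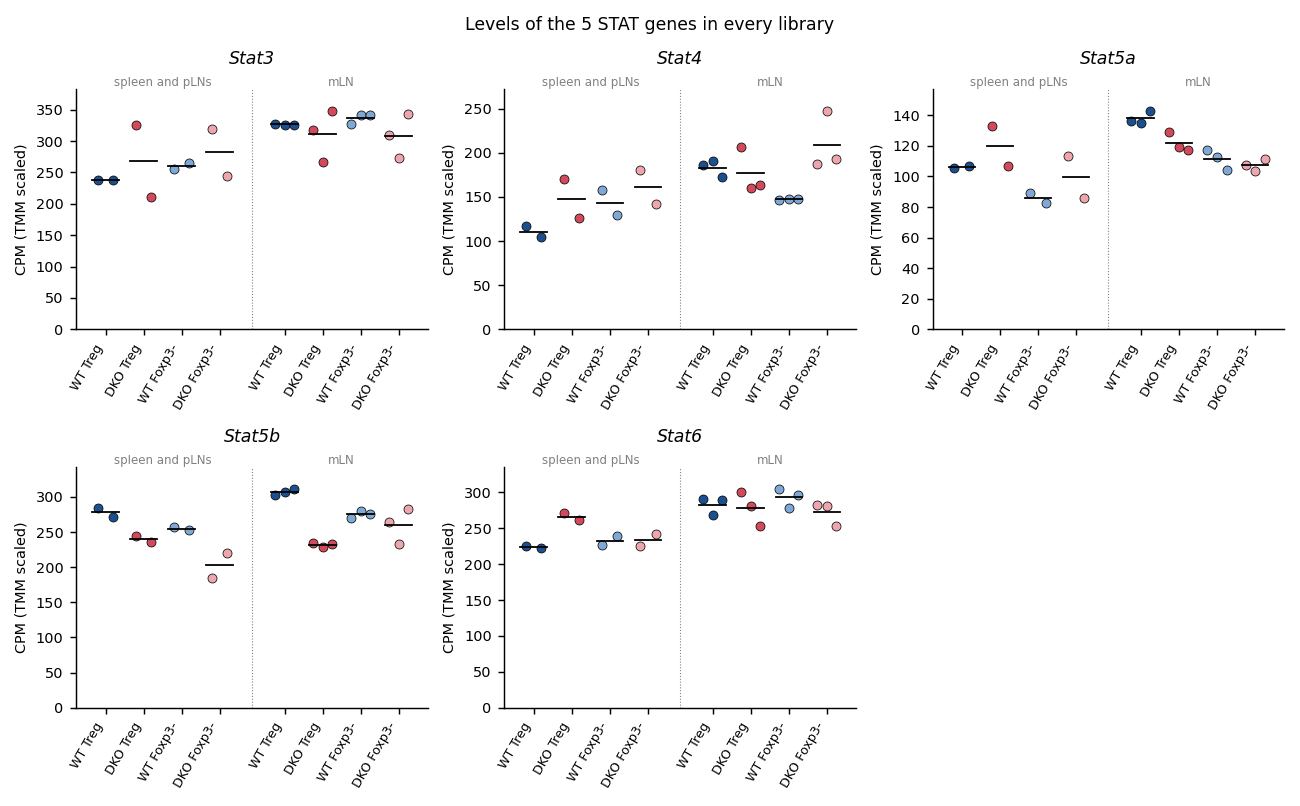
Levels of Stat3, Stat4, Stat5a, Stat5b and Stat6 in CPM after TMM scaling (linear axes from 0), 1 point per library and a line at the group mean, with spleen and pLNs on the left of each panel and mLN on the right. Stat5b in mLN Treg cells falls into separate WT and DKO groups, near 307 and 232 CPM, as does Stat4 in mLN Foxp3- cells, where WT lies at 147 to 148 CPM and DKO at 188 to 248 CPM.

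Calls needed a fold change of 1.5 or more together with 0.05 or less for the Benjamini-Hochberg adjusted p of edgeR's quasi-likelihood test, and the shares of all tested genes called are given beside the members' counts, from which nothing is read because the 9 genes were selected on these contrasts. In mLN Treg cells 0 of the 9 genes were called higher and 4 lower (the 4 SOCS genes), where 8.5% of all tested genes were called higher and 3.43% lower in DKO. In mLN Foxp3- cells 0 were called higher and 1 lower (Cish), where 3.12% of all genes were called higher and 0.304% lower. In Treg cells of spleen and pLNs 0 of the 9 were called, where 1.14% of all genes were called higher and 0.605% lower. In Foxp3- cells there 0 of the 9 were called, where 0.77% were called higher and 0.0489% lower. DESeq2, with shares over the genes that it gave an adjusted p, called 1 of the 9 (Socs2, lower) in Treg cells of spleen and pLNs, beside 3.56% higher and 1.73% lower. It called 0 in Foxp3- cells there, beside 2.87% and 0.204%. In mLN it called 4 lower in Treg cells, beside 11.3% and 4.86%, and 1 lower in Foxp3- cells, beside 6.7% and 0.719%. Without both DKO libraries numbered 1, edgeR called 2 of the 9 (Socs2 and Cish, lower) in Treg cells of spleen and pLNs, beside 5.3% higher and 2.89% lower, and 1 (Cish, higher) in Foxp3- cells, beside 2.13% and 0.498%. Without DKO Foxp3- replicate 2 instead, the differences in Foxp3- cells of spleen and pLNs were -0.66 for Cish and -0.997 for Socs2. The median difference of the 4 SOCS genes was -1.40 in mLN and -0.64 in spleen and pLN Treg cells, and that of the 5 STAT genes was -0.07 and 0.18, beside 0.00 and 0.02 for all genes tested. The calls of Socs2 and Cish in mLN Treg cells were made in all 13 alternatives. That of Socs1 was made in 11 and lost without WT Treg replicate 3 (-0.73) or DKO Treg replicate 2 (-0.80). That of Socs3 was made in 8 and lost without WT Treg replicate 1, 2 or 3 (-0.96, -0.90 and -0.87) or DKO Treg replicate 1 or 2 (-0.80 and -0.67). That of Cish in mLN Foxp3- cells was also made in 8, and was lost without DKO replicate 2 (-0.75), without WT replicate 1, 2 or 3 (-0.92, -0.87 and -0.77) and when the 2 groups were fitted alone (-0.86).

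The scale shifted these differences. The median log2 difference over genes whose mean level reached 5 CPM was -0.05 after TMM scaling and 0.28 from TPM in Treg cells of spleen and pLNs, and -0.03 and 0.14 in those of mLN. From TPM the Treg differences were 0.02 for Socs1, 0.20 for Socs3 and 0.13 for Stat5b in spleen and pLNs and 0.11 for Stat3, 0.13 for Stat4 and 0.15 for Stat6 in mLN, all of them opposite in sign to the TMM values and none of them called. In Foxp3- cells, where the medians from TPM were 0.21 in spleen and pLNs and 0.06 in mLN, Socs2 in spleen and pLNs (0.06) and Stat5a in mLN (0.02) changed sign. From TMM to TPM in mLN, Socs2 moved by 0.29 in Treg and -0.05 in Foxp3- cells, where the others moved by 0.18 to 0.19 and by 0.06 to 0.12. A pseudocount of 1 was added to TPM, which shrinks the differences of genes at low levels. The mean level of Socs2 in mLN was 10.1 TPM in DKO Treg cells and 1.18 and 1.31 TPM in WT and DKO Foxp3- cells. Its separate move is therefore not read as a trait of the gene. The Treg differences of Socs2 and Cish were negative on both scales in both tissues, at -0.97 and -0.65 from TPM in spleen and pLNs.

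Comparing cell types within WT mice, Socs1, Socs2 and Cish were higher in Treg than in Foxp3- cells without overlap in both tissues. The difference of Treg minus Foxp3- cells was 5.38 ± 0.33 for Socs2 and 2.84 ± 0.20 for Cish in mLN, 41.7-fold and 7.18-fold higher in Treg cells, and 2.62 ± 0.38 and 2.67 ± 0.30 in spleen and pLNs. For Socs1 it was 1.02 ± 0.19 in spleen and pLNs and 0.61 ± 0.22 in mLN, and for Socs3 the groups overlapped in both. In spleen and pLNs 3 of the 9 genes were called higher in Treg cells and 0 lower, where 2.48% of all genes were called higher and 1.52% lower, and in mLN 2 were called higher and 0 lower, where 6.91% were called higher and 3.14% lower. The Socs1 call was lost when any 1 of the 4 WT libraries of spleen and pLNs was left out (0.86 to 1.19), and that of Socs2 there without WT Foxp3- replicate 2 (2.54). Stat5a was higher in WT Treg than in WT Foxp3- cells without overlap in both tissues, by 0.31 ± 0.07 in mLN and 0.30 ± 0.17 in spleen and pLNs, and Stat4 was higher in Treg cells of mLN (0.31 ± 0.12) and lower in those of spleen and pLNs (-0.37 ± 0.19).

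The makeup of the SOCS transcripts differed accordingly. Cish took 38.0, 39.9 and 41.1% of the 4 genes' TPM in WT Treg libraries of mLN, 26.9, 31.8 and 27.4% in DKO Treg libraries and 10.5, 11.6 and 13.4% in WT Foxp3- libraries. In mLN the 4 genes together reached 303, 397 and 433 TPM in WT and 140.0, 119.6 and 223 TPM in DKO Treg libraries. The ratio of the 4 SOCS genes to the 5 STAT genes, both in TPM, was 0.573, 0.733 and 0.777 in WT and 0.224, 0.233 and 0.405 in DKO Treg libraries of mLN, and 0.684 and 0.825 and 0.386 and 0.491 in those of spleen and pLNs. A ratio within a library does not depend on how the library was scaled, and in both tissues the DKO Treg ratios lay below the WT ratios. For spleen and pLN Treg cells the 4 SOCS genes reached 234 and 268 TPM in WT and 226 and 183 TPM in DKO, and the 5 STAT genes 342 and 325 TPM in WT and 585 and 373 TPM in DKO. These sums carry the TPM scale, on which the median log2 difference of genes at 5 CPM or more was 0.28 in these cells, so no direction is read from them.

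**Figure D4:**
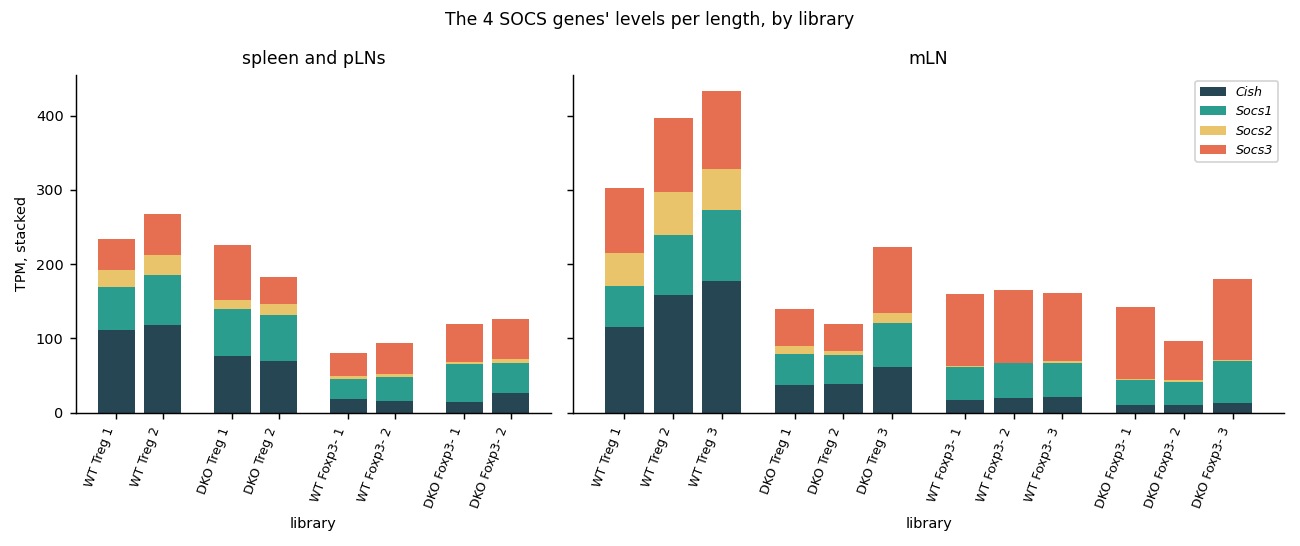
TPM of Cish, Socs1, Socs2 and Socs3 stacked for each library, with spleen and pLNs on the left and mLN on the right. The 3 WT Treg bars of mLN reach 303 to 433 TPM, the 3 DKO Treg bars 120 to 223 TPM, and Socs2 is a thin band in every Foxp3- library.

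The genotype by cell type interaction is the DKO difference in Treg cells minus that in Foxp3- cells, called on its adjusted p alone at 0.05, and for the 9 genes it is likewise a description. In mLN it was -2.71 ± 0.48 for Socs2, -1.03 ± 0.28 for Cish, -0.69 ± 0.40 for Socs3 and -0.64 ± 0.31 for Socs1, all more negative in Treg cells, and -0.56 ± 0.17 for Stat4 and -0.32 ± 0.11 for Stat5b. Of the 9 genes 1 was called (Socs2), where 0.28% of all genes were, and that call was made in 9 of 18 alternatives. DESeq2 called 3 of the 9, where it called 3.35% of all genes. It was lost without any 1 of the 3 WT Treg libraries (-2.79 to -2.64), of the 3 WT Foxp3- libraries (-2.99 to -2.53) or without DKO Treg replicate 1 (-2.74), and with the replicate number as a block, overall or within genotype (-2.75 and -2.81), where Cish was called instead (-1.04 and -1.05). The spleen and pLN interaction was -1.24 ± 0.52 for Socs2 and -1.08 ± 0.41 for Cish, with 0 of 9 called where 0.00611% of all genes were. Without both DKO libraries numbered 1, the interactions of Socs1, Socs2, Socs3 and Cish were called there, at -0.60, -1.52, -1.03 and -1.47. That fit had 1 library in each DKO group, and 2.63% of all genes were called.

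Across the 9 genes Socs2 and Cish tracked each other most closely, with a Pearson r of log2 CPM of 0.95 over the 12 mLN libraries and 0.99 over the 8 of spleen and pLNs. These correlations describe libraries that share groups and mice. Socs3 stood apart from both, at 0.08 with Cish and -0.08 with Socs2 in mLN and 0.32 and 0.27 in spleen and pLNs. Among 9475 genes whose mean mLN level reached 5 CPM, the genes most like Socs2 in mLN were Hopx (0.99, and 0.96 in spleen and pLNs), Tgfbr1 (0.99 and 0.93) and Lztfl1 (0.99 and 0.64), and those most like Cish were Slc14a1 (0.98 and 0.90), Mbnl3 (0.98 and 0.97) and Il10rb (0.98 and 0.92). Socs1 was closest to Mcl1 (0.98 and 0.78), Frmd6 (0.93 and 0.75) and Cd274 (0.92 and 0.73). Socs3 was closest to Foxp1 (0.98), Rev1 (0.97) and Fam105a (0.96) in mLN, where the same pairs were at -0.08, 0.33 and 0.03 in spleen and pLNs. For the STAT genes the closest in mLN were Rasal1, Nin and Fam178a to Stat3 (0.97 to 0.94), Ube2e1, Ube2q2 and Rnf34 to Stat4 (0.92 to 0.87), Cd99l2, Src and Lrig1 to Stat5a (0.97 to 0.95), Nr3c1, Traf6 and Itga6 to Stat5b (0.97 to 0.96) and Bloc1s3, Ddx11 and Ociad1 to Stat6 (0.84 to 0.82). Over the spleen and pLN libraries the same pairs were at 0.28, 0.61 and 0.68 for Stat3, -0.12, 0.55 and -0.62 for Stat4, 0.36, 0.53 and 0.78 for Stat5a, 0.68, 0.88 and 0.76 for Stat5b and -0.44, 0.07 and -0.71 for Stat6.

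The other genes of the pathway were counted in 7 lists of 67 genes, 63 of them tested in mLN and 64 in spleen and pLNs. These lists were drawn up with earlier results of these data known, so their shares beside those of all genes are a description. In DKO against WT Treg cells of mLN 4 of the 63 were called higher (6.35%) and 8 lower (12.7%), beside 8.5% and 3.43% of all genes, with a median of -0.20. Among Foxp3- cells of mLN 2 were called higher (3.17%) and 1 lower (1.59%), beside 3.12% and 0.304%, with a median of 0.03. Of the 64 in spleen and pLNs 0 were called higher and 2 lower (3.12%) in Treg cells, beside 1.14% and 0.605% of all genes, and 1 higher and 1 lower in Foxp3- cells, beside 0.77% and 0.0489%. Without both DKO libraries numbered 1, 2 were called higher and 7 lower in Treg cells of spleen and pLNs, beside 5.3% and 2.89% of all genes. Without both numbered 2, 4 were called higher and 1 lower in mLN Foxp3- cells, beside 2.98% and 0.539%. Adjusted p-values below are from edgeR's quasi-likelihood test over all genes tested, and they measure the spread between libraries. Treg and Foxp3- libraries of a genotype entered the fit as independent. Libraries share mice, however, and those of DKO spleen and pLNs came from the same 2 littermates.

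Receptor chains held 9 of the 12 calls in mLN Treg cells, 2 of 22 higher (9.09%) and 7 lower (31.8%), beside the shares of all genes above. Il2ra, the IL-2 receptor α chain, fell from 703, 797 and 783 CPM in WT to 364, 239.6 and 449.8 CPM in DKO, a difference of -1.12 ± 0.23 (adjusted p = 0.00516). Ifngr2, a chain of the interferon-γ receptor, fell by 2.30-fold (adjusted p = 0.00234), Il4ra from 276, 298 and 287 to 141, 121 and 167 CPM (adjusted p = 0.0208) and Il6ra by 1.86-fold (adjusted p = 0.0113). Il9r, Il13ra1 and Il12rb1 completed those that fell, with differences of -2.02 ± 0.33, -3.23 ± 0.43 and -0.60 ± 0.17. Il13ra1 was at 3.70, 3.56 and 4.43 CPM in WT and at 0.458, 0.575 and 0.168 CPM in DKO. Those DKO levels lay near the floor, so the size of its difference is uncertain. The chains that rose were Il12rb2 and Il23r, the partners of Il12rb1 in the IL-12 and IL-23 receptors. Il12rb2 was at 0.329, 0.165 and 0.590 CPM in WT against 6.64, 3.09 and 6.38 CPM in DKO (adjusted p = 0.00121), and Il23r at 3.45, 3.14 and 2.26 CPM in WT against 28.9, 9.70 and 18.5 CPM in DKO (adjusted p = 0.00511).

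In Foxp3- cells of mLN the receptor chain called was Il9r, lower at -1.76 ± 0.32 (adjusted p = 0.0122). In Treg cells of spleen and pLNs Il9r and Il13ra1 were lower at -1.82 ± 0.32 and -3.94 ± 0.49 (adjusted p = 0.0181 and 0.0026), and Il13ra1 was also lower in Foxp3- cells there, at -3.00 ± 0.54. Il13ra1 was again near the floor in DKO, at 0.859 and 0.341 CPM in these Treg cells and 0.377 and 0.222 CPM in these Foxp3- cells. WT had 10.5 and 8.42 CPM and 2.89 and 2.09 CPM. Il2ra in Treg cells of spleen and pLNs was at 511 and 494 CPM in WT against 399 and 436 CPM in DKO and was not called (adjusted p = 0.414). Leaving out single libraries ended some of these calls. In mLN Treg cells those of Il4ra and Il12rb1 were lost without any 1 of the 3 WT libraries or DKO replicate 1 or 2 (Il4ra -1.03 to -0.90, Il12rb1 -0.65 to -0.56), and that of Il9r in mLN Foxp3- cells without any 1 of the WT libraries (-1.86 to -1.69). In spleen and pLN Treg cells Il9r and Il13ra1 were not called without either WT library or DKO replicate 1 (Il9r -1.84 to -1.55, Il13ra1 -4.76 to -3.77), nor was Il13ra1 in Foxp3- cells without either WT library (-2.75 and -3.21).

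Of the cytokine genes, 18 of 22 were tested in mLN. Il21, which acts through STAT3, rose in mLN Treg cells from 4.44, 4.63 and 2.85 CPM in WT to 34.8, 9.27 and 32.2 CPM in DKO (adjusted p = 0.014), and Lif, a cytokine of the IL-6 family, from 8.14, 6.95 and 9.64 CPM to 49.8, 74.2 and 59.0 CPM (adjusted p = 0.000593). Osm, an IL-6 family cytokine that STAT5 induces, fell by 1.80-fold (adjusted p = 0.00356). Il21 and Lif rose in Foxp3- cells of mLN as well, by 2.60 ± 0.59 and 2.45 ± 0.44. Il21 there was at 18.8, 139 and 101 CPM in DKO against 12.3, 18.9 and 11.4 CPM in WT, replicate 1 being inside the WT range. Lif was also called higher in Foxp3- cells of spleen and pLNs (adjusted p = 0.04), at 138 and 8.45 CPM in DKO and 2.35 and 2.41 CPM in WT. The Il21 call was lost in mLN Treg cells without WT replicate 1 or 3 (2.74 and 2.48) and in mLN Foxp3- cells without any 1 library other than DKO replicate 1 (2.07 to 2.87). The Lif call was lost in mLN Foxp3- cells without WT replicate 1 or 2 (2.25 and 2.45) and in Foxp3- cells of spleen and pLNs without either WT library (4.92 and 4.96). In the latter cells it was also lost with the replicate number as a block, with edgeR's filterByExpr filter and with the 2 groups fitted alone.

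The kinases and the other SOCS genes stayed under the 1.5-fold minimum used for a call in every DKO comparison. None of the 4 JAK genes, of the 4 other SOCS genes, of the 4 ubiquitin ligase subunits or of the 10 other inhibitors was called in any DKO comparison by edgeR or DESeq2. At an unadjusted p under 0.05 in mLN Treg cells there were 2 JAK genes, 2 SOCS genes, 0 subunits and 4 inhibitors, 8 of 22 genes, beside 32.4% of all genes. Jak1, which pairs with most cytokine receptors, differed in mLN Treg cells by -0.19 ± 0.07, Jak2 by -0.08 ± 0.17, Jak3, the partner of the common γ chain, by 0.31 ± 0.13 and Tyk2 by 0.18 ± 0.11. Socs4, Socs5, Socs6 and Socs7 differed by -0.34 ± 0.12, -0.27 ± 0.17, -0.29 ± 0.10 and 0.17 ± 0.13. Stat2 differed by 0.06 ± 0.17. In Treg cells of spleen and pLNs the largest of these differences were -0.52 ± 0.17 for Socs5, -0.41 ± 0.17 for Socs4 and 0.40 ± 0.16 for Tyk2, each without overlap. At an unadjusted p under 0.05 there were 2 of the 4 SOCS genes and 1 of the 4 JAK genes there, beside 20.4% of all genes.

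**Figure D5:**
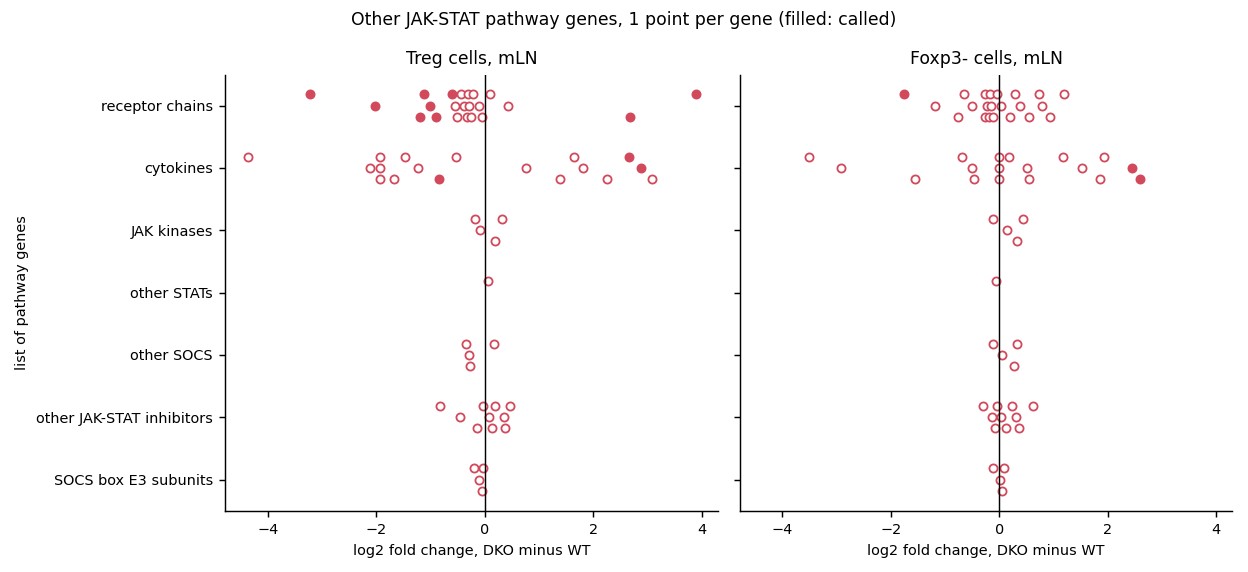
Log2 fold change of DKO minus WT in mLN for the 63 tested pathway genes outside the 9, 1 point per gene in rows by list, with Treg cells on the left and Foxp3- cells on the right (filled: called, open: not called). In Treg cells 7 filled points of the receptor chains lie below 0 and 2 above, and the rows of JAK genes, other SOCS genes and ubiquitin ligase subunits hold none.

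Known targets of the STATs were counted in lists that overlap the receptor and cytokine lists, so that 11 genes (Il2ra, Osm, Il21, Il23r, Il10, Ifng, Il12rb2, Il4, Il5, Il13 and Il4ra) count in both, and no test compared one list with another. The target lists were likewise drawn up with earlier results known, so their shares are a description. Of 14 STAT5 targets in mLN Treg cells 4 were called lower (28.6%) and 1 higher (7.14%), beside 3.43% and 8.5% of all genes. Bcl2, a survival factor, fell from 232, 242 and 249 CPM to 126, 102 and 150.4 CPM (adjusted p = 0.000413), the cytokine gene Lta by 2.75-fold (adjusted p = 0.00485), and Il2ra and Osm fell as given above, whereas the kinase gene Pim2 rose by 2.32-fold (adjusted p = 0.00506). Of 13 STAT3 targets 6 were called higher (46.2%) and 0 lower, among them Bcl6, the repressor that directs follicular helper T cells, at 1.62 ± 0.22 (adjusted p = 0.000464), Batf at 0.98 ± 0.17 (adjusted p = 0.00207) and Hif1a at 1.28 ± 0.31 (adjusted p = 0.0119), with Il21, Il23r and Il17a. Il17a was at 0.458, 0.0719 and 1.09 CPM in DKO and 0.00, 0.0827 and 0.00 CPM in WT, groups that overlapped and that rest on few counts, with every WT library under the floor. Of 8 STAT4 targets Il18r1 was called lower (-1.53 ± 0.23) and Il12rb2 higher, and of 5 STAT6 targets 1 was called lower (Il4ra). The median was -0.34 for the STAT5 list, 0.98 for STAT3, -0.15 for STAT4 and -1.68 for STAT6, beside 0.00 for all genes.

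In mLN Foxp3- cells 3 of 13 STAT3 targets were called by edgeR, all higher (Il21, Maf and Hif1a), where 3.12% of all genes were called higher. DESeq2 called 6, also all higher, where 6.7% were. Of 14 STAT5 targets 0 were called by edgeR and 1 (Pim2, higher) by DESeq2, with 7 of 14 at an unadjusted p under 0.05, beside 18.7% of all genes. In Treg cells of spleen and pLNs Pim2 and Myc of the STAT5 list were called higher, at 0.92 ± 0.19 and 0.86 ± 0.17 (adjusted p = 0.0394 and 0.0274), and Il18r1 of the STAT4 list lower at -2.00 ± 0.28 (adjusted p = 0.00502). There 0 of 13 STAT3 targets were called by edgeR or DESeq2, with 0 at an unadjusted p under 0.05, beside 20.4% of all genes. In Foxp3- cells of spleen and pLNs 0 of the 13 STAT3 targets were called by edgeR and 3, all higher, by DESeq2, beside 0.77% and 2.87% of all genes. An unadjusted p under 0.05 was found for 9 of the 13, beside 12.9% of all genes. Of the list, Hif1a was at 1406 and 361 CPM in DKO and 368 and 321 CPM in WT, replicate 1 far above WT and replicate 2 inside the WT range. Several target calls also rested on single libraries. Maf in mLN Foxp3- cells was not called without any 1 library other than DKO replicate 1 (0.97 to 1.73), the lowest value being without DKO replicate 2, and Hif1a not without any 1 of the WT libraries (1.42 to 1.49). In mLN Treg cells the call of Il17a was lost without any 1 library other than DKO replicate 2. In spleen and pLN Treg cells Myc and Il18r1 were not called without either WT library or DKO replicate 1 (Myc 0.70 to 0.88, Il18r1 -2.02 to -1.98), nor Pim2 without any 1 of the 4 (0.79 to 1.08).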

How the data were processed

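RNA from sorted CD4+YFP+ Treg and CD4+YFP- T cells was sequenced as 50-base single-end reads. The authors prepared stranded mRNA libraries, aligned reads to mm9 with TopHat2 2.1.1, keeping 1 alignment per read, and assigned them by strand on RefSeq genes with featureCounts (Subread 1.4.3-p1); bcl2fastq 2.20.0.442 is named in the submitters' processing notes. The deposited count tables are raw counts per gene, and the deposited TPM tables hold the authors' values per length, which for the median well-counted gene followed the counts in a fixed ratio, apart from each library's own scaling. 0 columns were left without a sample.

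Counts of each tissue were normalized by TMM and tested with edgeR 4.0.16 (limma 3.58.1, R 4.3.3), quasi-likelihood, on genes with at least 1 count in total, with the 4 groups in one fit and no replicate block. The test was tested on simulated data in which 200 genes were changed. Calls are defined in the report. The common biological coefficient of variation was 21.6% in spleen and pLNs and 17.7% in mLN. DESeq2 1.42.0, edgeR's filterByExpr, TPM with a pseudocount of 1, no fold minimum, a replicate block, 2 groups alone and each library left out were alternatives. Log2 CPM for correlations used a prior count of 2. The floor is 3 counts and covers counting error only. No 2 libraries of a group agreed within sampling noise, the lowest chi-square per degree of freedom being 3.69 over 16 pairs.

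The 9 genes and all lists were chosen with earlier results of these data known. The genes named are the 9, every listed gene called in either DKO comparison, all JAK and other SOCS genes, Stat2, and the 3 genes with the highest correlation to each of the 9 in mLN. P-values measure only the spread between these libraries. Same-numbered samples of different genotype deviated together, by a Pearson r over 0.1, in 0 of 12 pairs in mLN and 0 of 8 in spleen and pLNs. Coordinates are those of NCBIM37 with GENCODE M1, an annotation other than the one counted on. A gene of the pathway lists is not reported here and is not in their counts.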

Additional observations from a re-analysis of the deposited data

Results flagged for a closer look

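Results are listed here where the DKO difference ran in opposite directions in 2 groups, or where the interaction was called. The interaction of genotype and cell type in mLN was -2.71 (log2, Treg minus Foxp3- cells) for Socs2, which was called and is given as a description because Socs2 was selected on these libraries. For Il12rb1 in mLN all DKO libraries were below all WT libraries in Treg cells and above them in Foxp3- cells, with an interaction of -1.14 that was not called. In spleen and pLNs the same held for Il2ra (-0.81) and Socs6 (-0.29), and neither interaction was called.

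In Foxp3- cells every DKO library was above WT in spleen and pLNs and below WT in mLN for Socs6 (0.16 and -0.11) and Myc (0.39 and -0.40), differences between tables that were normalized apart and were not tested.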

How the results depend on the processing

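Of 522 values of the 9 genes under alternatives other than leaving out 1 library, 478 stayed on the same side of the threshold. A call was lost by 3 and gained by 17. Another 24 moved by more than 1 standard error, across 0 or from TPM, without a change of call, and 0 reversed. With 1 library left out the same counts were 414, 23, 6, 6 and 1 of 450. A change of sign within 1 standard error was counted with the values that stayed. The 1 reversal was Cish in Foxp3- cells of spleen and pLNs without DKO replicate 2 (-0.66, against 0.58 without DKO replicate 1). For the named pathway and target genes 2 of 1669 values reversed, both without the DKO libraries numbered 1 of spleen and pLNs, Il21 in Treg cells (-1.25) and the interaction of Bcl6 (0.93), and with 1 library left out 102 of 1550 lost and 52 gained a call.

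Counts of the 9 genes called in spleen and pLNs were, for DKO against WT Treg cells, 0 in the reported fit, 1 by DESeq2, 2 with the 2 groups fitted alone and 2 without both DKO libraries numbered 1, which was chosen after seeing the data. Without those libraries the counts were 1 in Foxp3- cells and 4 for the interaction, against 0 and 0, and each DKO group then had 1 library, assumed to vary like the others. In mLN Foxp3- cells the count was 1 as reported, 2 without the fold minimum (Stat4 added) and 0 with the 2 groups alone, and for the interaction 1 as reported and 3 by DESeq2. With the 2 groups alone, 864 of 15595 genes were called higher and 392 lower in Treg cells of spleen and pLNs. In mLN Foxp3- cells 1 of 15795 was called higher and 1 lower with the 2 groups alone, and 552 and 91 of 16784 without the fold minimum. Leaving out 1 library gave, for Treg cells, Foxp3- cells, WT cell types and the interaction, 0 to 0, 0 to 2, 1 to 2 and 0 to 1 in spleen and pLNs and 2 to 4, 0 to 1, 2 to 3 and 0 to 3 in mLN.

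Counts of pathway genes moved more. In spleen and pLNs Treg cells had 2 as reported, 5 by DESeq2, 1 with filterByExpr, 8 with 2 groups alone and 9 without the DKO libraries numbered 1. Foxp3- cells had 2 as reported and 0 with filterByExpr or 2 groups alone, the WT cell types 12 and 20 with 2 groups alone, and the interaction 0 and 8 without the DKO libraries numbered 1. In mLN Foxp3- cells had 3 as reported, 5 by DESeq2, 0 with 2 groups alone and 5 without the DKO libraries numbered 2, the WT cell types 13 and 20 with 2 groups alone, and the interaction 0 as reported, 6 by DESeq2 and 8 without the DKO libraries numbered 2. Leaving out 1 library gave, in the same order, 0 to 7, 0 to 19, 3 to 4 and 0 to 6 in spleen and pLNs and 9 to 14, 0 to 11, 11 to 12 and 0 to 7 in mLN. Calls over all genes moved as well when 1 library was left out. With 2 groups alone they were 864 higher and 392 lower of 15595 in Treg cells of spleen and pLNs, and 1 and 0 of 15294 in Foxp3- cells. For the WT cell types they were 1168 and 892 of 15034 there and 1671 and 873 of 15562 in mLN. With filterByExpr they were 13 and 11 of 11671 in Treg cells and 1 and 0 in Foxp3- cells of spleen and pLNs. The cause of these moves was not tested.

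Labels give the groups the same replicate numbers. The replicate block, with the number as a term, called 1 pathway gene in Foxp3- cells of spleen and pLNs against 2, and the replicate block within genotype called 2 for the mLN interaction against 0. Under these 2 blocks the interaction of Socs2 in mLN lost its call (-2.75 and -2.81) and that of Cish gained one (-1.04 and -1.05). Numbers did not pair samples between genotypes, and within DKO the deviations of same-numbered mLN samples correlated at 0.171 to 0.311 over 3 pairs. Over all genes, leaving out both DKO libraries numbered 1 took the calls in Treg cells of spleen and pLNs from 186 higher and 99 lower to 830 and 453, and those of the interaction from 0 and 1 to 153 and 259, and leaving out both numbered 2 took those of the mLN interaction from 20 and 27 to 218 and 320.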
